A study of Caenorhabditis elegans with 2 samples.

Results

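MicroRNA (miRNA) genes encode hairpin precursors of small regulatory RNAs, and SWSN-7 binding at them was followed in L1 larvae of Caenorhabditis elegans. All 261 genes with the biotype miRNA on the 6 nuclear chromosomes of the WBcel235 annotation (build ce11) were taken, out of 46890 annotated genes there. For each gene, the strongest binding entry was sought whose summit lay between 2000 bp upstream of the annotated 5′ end and the gene's 3′ end. A gene is termed called when that window held a summit from the list passing the irreproducible discovery rate (IDR) threshold. The threshold is meant to keep entries that rank alike in both replicates, but ranks at single genes could still differ. Of the 261 genes, 63 were called. Genes were then split by whether they lay in an intron of a protein-coding gene (100 genes), in a cluster of miRNA genes on 1 strand with gaps of at most 1000 bp (32 genes) or alone (120 genes, termed free-standing). The remaining 9 overlapped another gene in some other way.

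Most miRNAs are made from a long primary transcript, cut in the nucleus by Drosha with its partner Pasha (drsh-1 and pash-1 in the worm) and in the cytoplasm by Dicer (dcr-1), and loaded into an Argonaute protein. The miRNA then pairs with target mRNAs, mainly through its seed, bases 2 to 8, so miRNAs with 1 seed form a family with overlapping targets. In C. elegans, lin-4 and let-7 time the larval stages, and other families act in embryos, neurons, muscle, starvation and ageing. SWSN-7 is an ARID-domain protein of the PBAF form of the SWI/SNF complex, which moves and evicts nucleosomes at promoters and enhancers.

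The series held 1 group of 2 replicates, labelled as biological, of whole hermaphrodites of strain OP512. Their genotype was unc-119(tm4063) III; wgIs512, where wgIs512 is the transgene that makes SWSN-7 with GFP and FLAG at its C terminus. The larvae were taken 6 h after synchronization, for which bleached eggs gave L1 larvae that were starved, and chromatin was sonicated and precipitated with an antibody to GFP. Whole animals mix all cell types, so an entry does not say in which cells the protein was bound, and the tagged protein came from a transgene. The labels name a control experiment, but no control data were analysed here, so the values have no measured background and no difference between conditions was tested. The authors' lists gave a signal value, the peak caller's enrichment measure, which is comparable within a list only, and ranks are counted from the highest signal value of a list. The depth of the libraries is unknown.

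The mature sequences below were read 5′ to 3′ from the WBcel235 genome of RefSeq at the positions of the Ensembl 115 gene models, in RNA letters, with the seed in capitals. The first set shows the mir-51 family, which acts in embryonic development and was called at each of its 6 genes. They share the seed ACCCGUA.
mir-51: uACCCGUAgcuccuauccauguu
mir-52: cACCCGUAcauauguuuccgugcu
mir-53: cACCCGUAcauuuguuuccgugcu
mir-54: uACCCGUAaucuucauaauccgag
mir-55: uACCCGUAuaaguuucugcugag
mir-56: uACCCGUAauguuuccgcugag
The second set shows 4 of the 5 genes with the let-7 seed GAGGUAG, of which let-7 alone was called. It is followed by lin-4, which was called, and mir-237, which has the lin-4 seed CCCUGAG and was not.
let-7: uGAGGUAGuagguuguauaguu
mir-48: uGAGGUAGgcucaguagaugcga
mir-84: uGAGGUAGuauguaauauuguaga
mir-241: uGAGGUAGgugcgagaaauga
lin-4: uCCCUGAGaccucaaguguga
mir-237: uCCCUGAGaauucucgaacagcu
The last set shows 4 of the 8 genes of the mir-58 family, whose best known role is in body size and dauer formation through the TGF-β pathways. Here mir-80 and mir-58.1 were called and mir-81, mir-82 and the 4 genes not printed were not. In its seed, mir-58.1 differs from the other 3 printed. The 8 are a list fixed by name and not by seed alone. Of the genes not printed, mir-2209.2 and mir-2209.3 have neither the seed of mir-58.1 nor that of mir-80. The gene Y73B6A.17 has the seed of mir-80 but is not in the list, and it was not called.
mir-58.1: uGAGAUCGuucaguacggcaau
mir-80: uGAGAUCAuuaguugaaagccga
mir-81: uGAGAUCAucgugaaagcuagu
mir-82: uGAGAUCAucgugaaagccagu

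The bound DNA is shown for 5 chosen entries, of the mir-51 family, of mir-58.1 and of the mir-229 cluster described below. Those of let-7, lin-4 and mir-80 are not printed. Each line is the 200 bp centred on the summit, plus strand, ce11, in capitals where it matches GAGAGA, the palindrome CACGTG or the word TATAAA, on either strand. A match is a description and not a site of a factor. The entry shared by mir-54, mir-55 and mir-56 (chrX:13145316-13145515) held a CACGTG match, and the entry shared by mir-51 and mir-53 (chrIV:11027713-11027912) held several GAGAGA matches. The strongest entry at mir-52 (chrIV:14033723-14033922) held TATAAA and GAGAGA, and so did that of mir-58.1 (chrIV:3232840-3233039). The entry of mir-229, mir-64, mir-65 and mir-66 (chrIII:2172022-2172221) held GAGAGA on both strands.
mir-54 to mir-56: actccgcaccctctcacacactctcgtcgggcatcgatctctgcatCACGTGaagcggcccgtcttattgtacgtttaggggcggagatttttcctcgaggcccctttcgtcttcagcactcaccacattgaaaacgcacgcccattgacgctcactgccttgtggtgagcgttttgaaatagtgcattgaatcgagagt
mir-51 and mir-53: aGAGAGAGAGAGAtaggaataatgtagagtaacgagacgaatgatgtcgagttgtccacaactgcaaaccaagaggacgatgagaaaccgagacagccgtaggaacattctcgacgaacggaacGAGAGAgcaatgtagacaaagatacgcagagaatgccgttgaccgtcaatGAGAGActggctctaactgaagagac
mir-52: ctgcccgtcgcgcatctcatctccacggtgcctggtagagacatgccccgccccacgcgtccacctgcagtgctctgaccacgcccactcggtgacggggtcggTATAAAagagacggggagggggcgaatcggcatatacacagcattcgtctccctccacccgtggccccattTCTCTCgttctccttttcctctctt
mir-58.1: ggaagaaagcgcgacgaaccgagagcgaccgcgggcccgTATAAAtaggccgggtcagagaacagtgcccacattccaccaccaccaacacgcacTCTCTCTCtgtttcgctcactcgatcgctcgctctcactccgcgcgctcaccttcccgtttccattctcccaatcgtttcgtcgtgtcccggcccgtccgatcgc
mir-229 to mir-66: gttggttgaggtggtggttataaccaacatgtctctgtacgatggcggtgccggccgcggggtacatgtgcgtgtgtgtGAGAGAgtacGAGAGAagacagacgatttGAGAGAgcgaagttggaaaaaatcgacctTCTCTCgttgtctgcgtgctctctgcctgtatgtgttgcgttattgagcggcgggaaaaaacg

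An IDR summit lay in the window of 63 of the 261 miRNA genes, or 24.1% (95% exact Clopper-Pearson interval 19.1 to 29.8, for counting error only). By the same rule, 13.8% of all annotated genes had a summit in their window. Among noncoding genes other than miRNA, piRNA and rRNA genes and pseudogenes the share was 16.9%. For protein-coding genes, with a window cut to the length of that of the median miRNA gene, it was 18.4%, and for positions of the genome taken alike it was 7.84%. The share at miRNA genes was therefore above each of these backgrounds, as a description with no test, since genes are not replicates and neighbours share entries. When only the strongest 4087 entries of replicate 1 were used, as many as the IDR list has, 61 genes (23.4%) had a summit beside 13.7% of all genes. With the strongest 4087 of replicate 2, 63 genes (24.1%) had one beside 13.8% of all genes. Taking the strongest 4087 of the pooled list, which combines both replicates, also gave 63 genes. Called genes had the same signal value and rank in the pooled list as in the IDR list, as with lin-4 at rank 4011 in both. The pooled count could therefore hardly differ and is not a separate check. The window size set the count: from 500 bp upstream, 36 genes (13.8%) had a summit beside 9.07% of all genes. The shares of noncoding genes, protein-coding genes and genome positions were computed only for the IDR list and the 2000 bp window.

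The 63 called genes rested on 54 entries, because 5 entries served several genes each. The median signal value of these 54 entries was 200.5, against 183.3 over all 4087 IDR entries, which ran from 88.4 to 5142.4. None of the called genes was at the 25 strongest entries, and 8 ranked within the first 408. Only 10 called genes had more than 1 IDR summit in their window, with the most at mir-71, where 4 summits were found. Outside the IDR list, 93 of the 198 other genes had a weaker entry in the pooled candidate list, and 105 had none among its 30000 entries. That list holds background as well as peaks, so a candidate alone is not a call.

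For each called gene, the replicate value given is that of the entry whose summit was nearest to the IDR summit. In 62 of the 63 genes it lay within 100 bp in both replicates, and at mir-4936 it was 215 bp away in replicate 1. These entries ranked from 80 to 6247 in replicate 1 and from 85 to 4897 in replicate 2. Both replicates placed 53 of them among their strongest 4087 entries, and lin-4 was the 1 called gene that neither placed there. Ranks were higher in replicate 1 for 27 genes and in replicate 2 for 36, so neither list ranked them higher throughout. Of the genes outside the IDR list, none had an entry in its window among the strongest 4087 of both replicates.

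**Figure D1:**
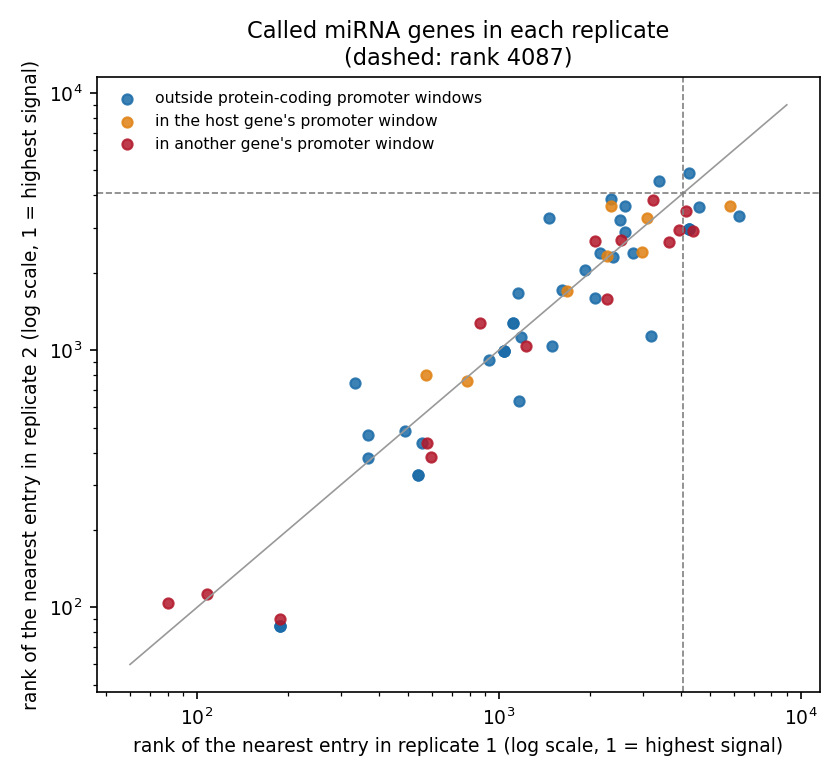
Rank of the entry nearest to the IDR summit of each of the 63 called miRNA genes in replicate 1 (horizontal) and replicate 2 (vertical), both on log scales with rank 1 the highest signal value, coloured by promoter placement; the solid line marks equal ranks and the dashed lines rank 4087. Points follow the diagonal, and the few beyond a dashed line had IDR signal values of at most 116.4.

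Of the 100 intronic genes, 28 were called (28%, interval 19.5 to 37.9), as were 5 of 32 clustered genes (15.6%, 5.28 to 32.8) and 28 of 120 free-standing genes (23.3%, 16.1 to 31.9). These intervals overlap, and no order of the classes is drawn from them. The 5 clustered genes stood on only 2 entries, and the interval takes no account of shared entries. The clustered count was unstable: replicate 1 alone gave 2 genes and replicate 2 alone gave 5. Among intronic genes, 23 of 68 on the strand of their host were called (33.8%, 22.8 to 46.3), and 5 of 32 on the opposite strand (15.6%, 5.28 to 32.8). Those 5 stood on only 3 entries, one of them the entry of mir-54, mir-55 and mir-56.

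Clusters were called as a whole or not at all. Counting clusters of at least 2 genes whatever else they overlap, there were 18, and in the 4 with a called gene every gene was called, through 1 shared entry upstream of the first gene. These were mir-54 to mir-56, the group of mir-229, mir-64, mir-65 and mir-66, the group of mir-42, mir-43 and mir-44, and the pair mir-2212 and mir-1819. Since the window reaches 2000 bp upstream, 1 entry near the first gene can lie in the windows of all the others. The largest cluster, the 7 genes mir-35 to mir-41, was not called, and its best pooled entry had a signal value of 37.9. Called genes were found on every chromosome, with 12 of 33 on I, 11 of 49 on II and 10 of 27 on III. On IV there were 12 of 50, on V 2 of 28 (mir-253 and mir-87) and on X 16 of 74. The share of all genes called on each chromosome was not computed, so no difference between chromosomes is drawn for miRNA genes.

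The summits at miRNA genes were placed against protein-coding promoters, taken as 1000 bp upstream to 500 bp downstream of an annotated protein-coding 5′ end. Of all IDR entries, 62.5% had their summit in such a window. Of the 63 called miRNA genes, 23 (36.5%) did and 40 did not. Counted by entry, it was 23 of 54 (42.6%). In 8 of the 23 the promoter was that of the host gene alone. In the other 15 it was that of a neighbour. For 3 of these, mir-2216, mir-353 and mir-8205, the window of the host held the summit too. At mir-354 the window of rps-20, which overlaps the miRNA gene, also held it. None of the 5 clustered genes, which stood on 2 entries, had its summit in a promoter window. Of the free-standing genes 10 did and 18 did not, and of the intronic genes 11 did and 17 did not.

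The 40 genes with a summit outside promoter windows had signal values from 90.2 to 941.3, over 31 entries whose median, each counted once, was 214.6. In the host promoter group the median was 155.3 (90.4 to 420.0) and in the neighbour group 199.3 (99.4 to 1055.2), so the ranges overlap. The median position of the summit relative to the 5′ end of the miRNA gene, negative when upstream, was -470 bp outside promoter windows. It was -338.5 bp in a host's window and -844 bp in a neighbour's. Of all 63 summits, 30 lay between -500 bp and the 5′ end, 8 between -1000 and -500 bp, 7 between -1500 and -1000 bp and 15 between -2000 and -1500 bp. The 30 summits nearest upstream comprised 20 outside promoter windows, 5 in the host's and 5 in a neighbour's, beside 40, 8 and 15 of all 63. The summit lay within the gene model itself at 3 genes, mir-5549, mir-4934 and mir-8209. The gene model of most members is the hairpin, so these positions are not distances from the start of the primary transcript.

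**Figure D2:**
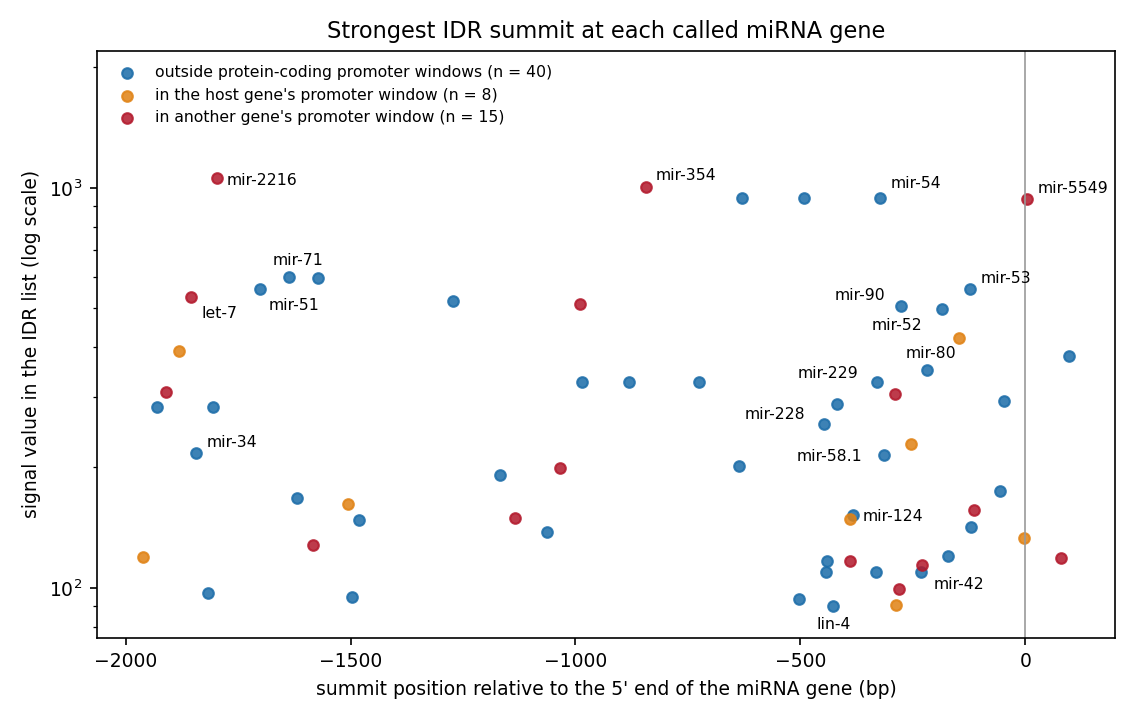
Position of the strongest IDR summit relative to the annotated 5′ end of each called miRNA gene in bp (horizontal, negative is upstream) against its signal value (vertical, log scale), coloured by promoter placement (40, 8 and 15 genes); selected genes are labelled. Summits gather within 500 bp upstream, where 20 of 30 lie outside protein-coding promoter windows, beside 40 of all 63.

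Genes were also split by the number in their symbol, roughly the order of naming, a split chosen after the values were seen. Of the 107 genes with numbers under 300, together with lin-4, let-7 and lsy-6, 33 were called (30.8%, 22.3 to 40.5), and 29 of those 33 outside any promoter window. Of the 150 genes with numbers from 300 up, 29 were called (19.3%, 13.3 to 26.6), of which 10 outside promoter windows, 6 in the host's and 13 in a neighbour's. Summits in promoter windows were thus mostly at genes with numbers from 300 up. Some genes share an entry, so the 33 called genes stood on 25 entries and the 29 on 28. For intronic genes the counts were 16 of 39 under 300 and 11 of 59 from 300, on 11 entries each. Free-standing genes had like shares, 13 of 56 and 15 of 63, on 12 and 15 entries. Of the 4 genes with no such name, 1 was called, F09A5.15, whose hairpin lies opposite mir-55 and whose own summit (signal value 116.5) was a different entry from that of mir-55.

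**Figure D3:**
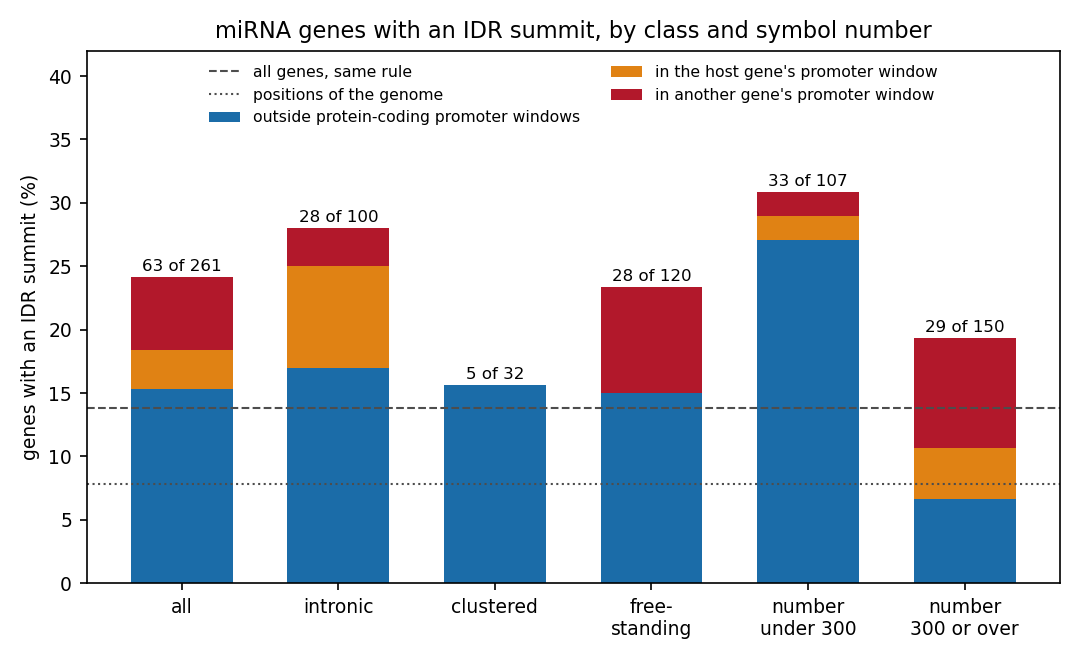
Share of miRNA genes with an IDR summit (vertical, percent) for all genes, for 3 classes and by symbol number, stacked by promoter placement with the counts above the bars; the dashed line is the share of all genes (13.8%) and the dotted line that of genome positions (7.84%). The part outside promoter windows is largest for numbers under 300, and 9 genes of other overlap are counted in the first bar only among the class bars. Bars count genes, including those that share an entry.

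The mir-51 family was called at 6 of its 6 genes, through 3 entries on chromosomes IV and X, beside 24.1% of all miRNA genes. Its strongest entry was the highest of any gene in the families and role lists. The entry of mir-54, mir-55 and mir-56 (chrX:13145019-13145672) had a signal value of 941.3, at 354.6 and rank 189 in replicate 1 and 601.4 and rank 85 in replicate 2. It lay at -322, -492 and -629 bp of the 3 genes, which sit in an intron of F09A5.3 on the opposite strand, and in no promoter window. The entry of mir-51 and mir-53 (chrIV:11027678-11027982) reached 558.8, at 209.6 and 355.5 in the replicates. It was at -122 bp of mir-53 and -1701 bp of mir-51, and mir-51 had a second summit of its own at -741 bp with 254.3. At mir-52 the strongest of 3 summits was at -185 bp with 497.0, and the nearest replicate entries had 268.6 (rank 333) and 225.6 (rank 745). The IDR entry was 1758 bp wide and spanned the gene. So each of the 3 loci held a summit within 500 bp of a hairpin.

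Of 9 heterochronic and let-7 seed genes, 2 were called, a share near that of all miRNA genes. For let-7, which drives the change from larva to adult, the signal value was 531.8, at 199.4 (rank 595) and 330.7 (rank 383). Its gene model is a 1732 bp transcript and not the hairpin, so that summit was at -1855 bp of the model and -2921 bp of the mature miRNA, while it was at -127 bp of the 5′ end of C05G5.2, a neighbour. For lin-4, which ends the first larval programme, the signal value was 90.2, near the foot of the IDR list at rank 4011, at 37.2 (rank 4280) and 43.8 (rank 4897). Its summit was at -428 bp, and the gene itself lies in an intron of F59G1.4 on the same strand. The other genes that act with let-7 include mir-241, whose entry at 84.8 in the pooled list (rank 4270) fell just short, and mir-48, with 18.2. No pooled candidate lay in the window of mir-84, whose nearest IDR summit was at -2291 bp, beyond the limit, with 212.7. Likewise mir-237 had a summit at -2468 bp with 91.9.

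In the list of the mir-58 family, 2 of 8 genes were called, a share near the 24.1% of all miRNA genes. The other 6 had no pooled candidate at all. The signal value was 349.5 at mir-80 (148.6 and 197.0 in the replicates, at -219 bp) and 214.6 at mir-58.1 (96.8 and 124.6, at -314 bp). Both summits lay outside promoter windows. The mir-35 family, needed in the embryo, had 1 called gene of 8, beside the same 24.1%, and neither family count was tested. This was mir-42, which stands apart from the other 7 with mir-43 and mir-44, at 109.3 in the IDR list with 37.4 (rank 4257) and 72.7 (rank 2962).

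The cluster of mir-229, mir-64, mir-65 and mir-66 lies in an intron of gcn-1 on the same strand. A gene with the same seed, mir-63, lies elsewhere and was not called (36.3 in the pooled list). The cluster's entry had a signal value of 326.4, at 134.7 (rank 1042) and 188.7 (rank 994), and lay at -330 bp of mir-229, the first of the cluster. They count among the 8 of 12 genes listed for starvation, stress and lifespan that were called, beside 24.1% of all miRNA genes. As the 4 genes of the cluster share 1 entry, these 8 are not separate calls, and the list was not tested. Another called gene of the list was mir-71, which promotes long life and survival of starvation. Its signal value was 597.7 at -1637 bp (257.0, rank 369, and 297.6, rank 470). Its 4 summits included 1 at -324 bp with 418.9, the strongest lay in no promoter window, and the gene sits in an intron of ppfr-1. The stress-responsive mir-34 had 217.2 at -1843 bp, and the replicates lay far apart, with 49 (rank 3204) and 172.0 (rank 1135). For mir-83 it was 94.6, and for mir-235, which holds progenitor cells quiescent in starved L1 larvae, it was 97.2 at -1818 bp, where a tRNA gene lay within 300 bp of the summit. The 4 that were not called were mir-238, at 54.3 in the pooled list, mir-239.1 and mir-239.2, at 70.7, and mir-246, at 16.9.

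Among 6 neuronal and glial genes, 3 were called, beside 24.1% of all miRNA genes, and this short list was not tested. For mir-228, expressed in glia, the signal value was 257.4 at -448 bp (124.8 and 127.1). For mir-2, a neuronal miRNA, it was 288.5 at -419 bp (102.6 and 183.4), and for mir-124, of the ciliated sensory neurons, 152.5 at -384 bp (66.9 and 94.8). All 3 summits were outside promoter windows and within 500 bp upstream. No candidate was found at lsy-6, which sets the left-right difference of a pair of taste neurons, or at mir-791, and mir-273 had 20.2 in the pooled list. The muscle gene mir-1 was called with 93.9 at -503 bp, at 25.7 (rank 6247) and 65.3 (rank 3328). It had a stronger IDR summit, 277.0, at -2491 bp, outside the window.

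None of the 4 intestinal and epidermal genes was called, beside 24.1% of all miRNA genes. The list is too short to read this as a lack of binding, and it was not tested. The nearest was mir-79 at 78.5 in the pooled list, then mir-60 at 17.4 and mir-240 and mir-786 at 16.6. Of 6 genes of embryonic patterning and gonad, mir-44 alone was called, through the entry it shares with mir-42, beside the same 24.1% and also not tested. The others ranged from no candidate at mir-259 to 60.9 in the pooled list at mir-57, which patterns the posterior.

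**Figure D4:**
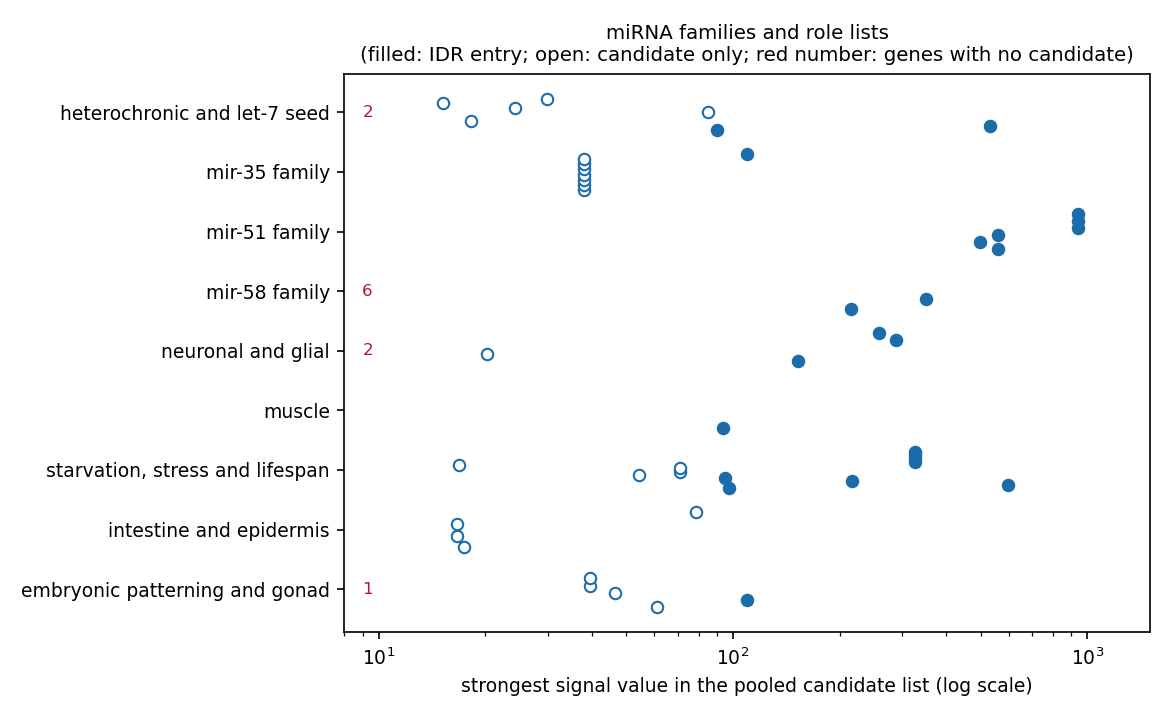
Strongest signal value in the pooled candidate list (horizontal, log scale) for each gene of the 9 families and role lists (rows, points spread vertically for sight only); filled points have an IDR entry, open points a candidate only, and red numbers count genes with no candidate. The 6 genes of the mir-51 family are all filled and lie between 497.0 and 941.3, while the 7 open points of the mir-35 family share 1 candidate at 37.9.

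The strongest entries outside these lists, at mir-2216, mir-354 and mir-5549, lay in promoter windows of other genes. Weaker ones lay in such windows, in those of hosts or outside any. The highest of all, 1055.2, was at mir-2216 (496.7, rank 80, and 568.1, rank 104), at -1798 bp of the miRNA gene but at -226 bp of cap-2 and -250 bp of its host gmps-1. At mir-354 the 1007.1 entry was at -165 bp of ekl-4 and -232 bp of rps-20, and at mir-5549 the 935.3 entry was at -172 bp of rfc-4 and -369 bp of eef-1A.1. The entry at mir-353, 511.0, was at -232 bp of its host, the ribosomal protein gene rpl-24.1, and at -378 bp of rps-10. Of these, rps-20 overlaps mir-354 itself. Several of these protein-coding genes make ribosomes, translate or replicate DNA (rps-20, rps-10, rpl-24.1, eef-1A.1 and rfc-4). Binding that belongs to the miRNA gene and binding that belongs to such a promoter cannot be told apart. Host promoters also held the summits of mir-5595 (420.0, at -276 bp of nurf-1, a subunit of a chromatin remodeller) and of mir-1828 (390.7, at -92 bp of pash-1). The summits at mir-800 (308.4, -192 bp of ife-2) and mir-8186.2 (305.0, -551 bp of gmeb-1) were of the neighbour kind.

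Outside promoter windows stood mir-2215 with 593.7 at -1572 bp, mir-2221 with 521.9 at -1273 bp, and mir-90 with 507.0 at -276 bp (207.3 and 311.2). Below these came mir-8209 with 380.2, mir-2214 with 293.8 at -47 bp, and the pair mir-2212 and mir-1819 with 282.5. By seed, mir-90 shares GAUAUGU with mir-62, which was called at 119.2 in the promoter window of its host ugt-50, and with mir-50, which was not called. At the far limit of the window the members just inside were mir-62 at -1961 bp, mir-1819 at -1931 bp and mir-800 at -1910 bp. A second IDR summit of mir-62, with 110.5, lay at -500 bp, so that call did not rest on the limit. Just outside the limit were mir-4924 at -2244 bp with 105.9 and mir-261 at -2269 bp with 127.6. The highest pooled signal values of genes not called were 86.0 at mir-232 (rank 4209) and 85.6 at mir-356.1 (rank 4225), against a lowest IDR value of 88.4.

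Several genes that make or use miRNAs had an IDR summit in their own promoter window, 6 of the 11 listed, beside 15.9% of all protein-coding genes by the same rule. The list is short and was not tested. The signal value was 1921.8 at nhl-2, a cofactor of the silencing complex, with the summit at -843 bp. It was 1734.2 at alg-5, an Argonaute, at -804 bp, and both were in the strongest 25 entries. It was 882.4 at ain-1, the GW182 protein, at -969 bp. At pash-1 it was 390.7 (-92 bp), at alg-1 209.8 (-415 bp) and at alg-2 141.9 (382 bp downstream). Whether these summits also lie in promoter windows of neighbours was not examined. No IDR summit was found in the promoters of drsh-1, dcr-1, ain-2, xrn-1 and xrn-2.

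Sequence around the 54 entries was compared with that around all 4087, in 200 bp windows centred on the summit and on both strands. GAGAGA was in 32 of 54 windows (59.3%), against 45.5% of all windows. Outside promoter windows it was in 20 of 31 (64.5%), against 54.8% of all entries there. TATAAA, a motif added after the values were seen, was in 14 of 54 windows (25.9%) against 12.8%, and in 8 of 31 (25.8%) against 10.6% outside promoter windows. CACGTG was in 5 of 54 windows (9.26%) against 7.32%, TTTCGCGC in 1 (1.85%) against 2.67%, TGATAA in 2 (3.7%) against 9.52% and TTTTTTTT in 2 (3.7%) against 11.9%. Median GC content was 45.5% against 44%, and outside promoter windows 51% against 46.2%. The windows printed above for mir-52 and mir-58.1 are examples with both GAGAGA and TATAAA, and these counts of short words in few windows were not tested.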

How the data were processed

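Each library's binding was measured by ChIP-seq in the 2 replicates. According to the deposited readme, reads were mapped by the authors to builds ce10 and ce11, candidates (peaks with background) were listed per replicate and for the pool, and the IDR threshold was applied to these. The aligner, peak caller and filters behind these lists were not given in the sources used here. A signal value and a −log10 q-value stand beside each entry in the authors' lists. The deposited −log10 q-values had 1 value over all IDR entries, so the signal value was used for every rank. Each candidate list held 30000 entries.

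From the ce11 lists, the strongest summit in each gene's window was taken with Python 3.11.15, and exact intervals with SciPy 1.17.1. They cover counting error only. Gene models were of Ensembl release 115, symbols of RefSeq, matched for 261 genes by WormBase ID. Neither replicate list repeated an entry of the other. Named are the 25 genes highest in signal value, the called genes of each family or role list, the host or neighbour genes of these, and the genes next to the 2000 bp limit. Genes that fell short and genes of the symbol number split were named after their values were seen. Members, lists and rules were chosen with earlier results of these data known. Alternatives changed the window, the cluster gap, the promoter window, the entries used and the replicates. The ce10 lists were not used. Window search, class and promoter window code was tested on simulated data with planted answers, and the motif code was not among these tests. Mature sequences were read from the genome, whose build matches that of the lists.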

Additional observations from a re-analysis of the deposited data

How the results depend on the processing

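Of 49 recalculations under other settings, 31 stayed within 1.5 times the reported count and 18 did not. The 31 include those with the strongest entries of the pooled list, which are not a separate check because called genes rank alike there and in the IDR list. With the window from 500 bp upstream, 36 genes had a summit, of which 18 intronic, 3 clustered, 15 free-standing and 13 in a promoter window. From 1000 bp upstream, 3 clustered and 18 free-standing genes did, with 15 in a promoter window. From 5000 bp upstream, 43 intronic genes did and 46 genes lay in a promoter window. With the strongest 2043 of the IDR entries, 36 genes had a summit, of which 18 intronic, 2 clustered, 14 free-standing and 11 in a promoter window. Allowing cluster gaps of 5000 bp and of 10000 bp gave 10 clustered genes each, of 48 and 56. With 1 replicate left out, the counts ran from 61 to 63 for all genes, 27 to 28 for intronic, 2 to 5 for clustered, 27 to 29 for free-standing and 22 to 23 for promoter windows. The clustered count fell to 2 without replicate 2, because mir-42, mir-43 and mir-44 rank below 4087 in replicate 1. No paired analysis was possible because the series has 1 group. The unknown depth limits what the lack of an entry says. A gene outside the IDR list had no entry passing the threshold in its window at this depth, and is not shown to be unbound. The cause of the other moves was not tested.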
